A study of Mus musculus with 12 samples.

Results

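The Myc and Max network is the set of genes for Myc, its dimer partner Max and the proteins that compete with Myc for Max or work beside it. The 10 genes taken here were Myc, Mycn, Max, Mxd1, Mxd3, Mxd4, Mxi1, Mnt, Mga and Mlx, chosen by gene symbol, and each was read by 1 probe set. They were 10 of 19938 genes with a probe set of 1 gene symbol. They were measured on 12 arrays of RNA from mouse bone marrow progenitors selected for c-Kit, in 4 groups of 3 arrays. Every mouse carried CreER, a Cre recombinase that tamoxifen switches on, and every mouse received 5 mg of tamoxifen a day by gavage for 3 days. The genotypes were Zfx wt/y CreER, labelled Zfx wt, and Zfx fl/y CreER, labelled Zfx ko. Zfx is an X-linked zinc finger transcription factor, and the series asks how its deletion alters the expression that Myc induces. Cells of both genotypes were infected with a control retrovirus carrying GFP or with a retrovirus that also expressed Myc. Infection lasted 48 hours, after which cells positive for GFP were sorted and grown for 4 more days. The medium held serum and the cytokines SCF, IL-3 and IL-6, each at 10 ng/mL. The groups are named GFP wt, Myc wt, GFP ko and Myc ko below. The sources used here do not state the promoter that drives CreER, the ages of the mice or any pooling of animals.

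Myc and Mycn are basic helix-loop-helix leucine zipper proteins that bind DNA as dimers with Max, mostly at E-box sequences, and raise transcription. Mxd1, Mxd3, Mxd4, Mxi1 and Mnt also dimerise with Max, but recruit the Sin3 corepressors, so that they oppose Myc at the same kind of site. Mga pairs with Max inside a variant Polycomb complex, PRC1.6. Mlx is a Max-like protein that pairs with the Mondo proteins Mlxip and Mlxipl, which sense sugars, and with some of the Mxd proteins and Mnt. In blood cells Myc is known for driving growth of progenitors, and Mxd1 for its rise as myeloid cells mature.

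Upstream sequences of the members were searched for the letters that these proteins read. The reason was that several members changed with the Myc virus, some up and some down, and 1 with the Zfx label. RefSeq promoters of GRCm38.p6 were found for 9 of the 10 genes; Myc was the other. In the 250 bases upstream of the start, CACGTG, the canonical E-box and its own reverse complement, stood in Mxd4, Mnt and Mlx. Of all 32851 promoters, 6.02% held it in a window of that length, as did 6.86% of 27025 genes in any of their promoters. CACGCG, an E-box variant searched on both strands, was found in Mga alone and in 7.62% of all promoters (8.65% of genes). AGGCCT, the core letters of Zfx sites and its own reverse complement, was found in none of the 9 genes. It stood in 8.7% of all promoters (9.89% of genes). Each of the 4 genes held 1 match, so no matches overlapped. Mxi1 had 3 listed promoters and the other genes 1 each. The first base of the match lay 40 bases before the start in Mlx, 123 in Mnt, 219 in Mxd4 and 21 in Mga. A match is a description of the letters and not a measured binding site. Printed here are 2 members whose probe sets fell or rose and that hold a match, Mlx and Mga, and 2 that fell and hold none, Mxd1 and Mxd3, with matches in capitals.
Mlx, chr11:101087040-101087289, plus strand: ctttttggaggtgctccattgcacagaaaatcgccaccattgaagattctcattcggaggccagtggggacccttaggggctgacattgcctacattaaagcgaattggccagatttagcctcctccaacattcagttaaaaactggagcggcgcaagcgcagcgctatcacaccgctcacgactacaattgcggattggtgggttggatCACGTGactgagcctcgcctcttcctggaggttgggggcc
Mga, chr2:119896978-119897227, plus strand: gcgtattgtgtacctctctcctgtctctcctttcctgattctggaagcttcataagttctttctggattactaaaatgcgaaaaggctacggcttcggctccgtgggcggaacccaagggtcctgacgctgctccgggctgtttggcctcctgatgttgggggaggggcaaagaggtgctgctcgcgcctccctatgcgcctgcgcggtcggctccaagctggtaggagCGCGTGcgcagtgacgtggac
Mxd1, chr6:86669160-86669409, minus strand: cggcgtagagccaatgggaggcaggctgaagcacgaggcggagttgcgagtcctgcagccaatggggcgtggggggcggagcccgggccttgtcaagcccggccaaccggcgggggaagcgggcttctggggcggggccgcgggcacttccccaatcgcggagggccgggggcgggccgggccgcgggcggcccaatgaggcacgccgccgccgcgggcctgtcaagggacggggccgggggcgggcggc
Mxd3, chr13:55329732-55329981, minus strand: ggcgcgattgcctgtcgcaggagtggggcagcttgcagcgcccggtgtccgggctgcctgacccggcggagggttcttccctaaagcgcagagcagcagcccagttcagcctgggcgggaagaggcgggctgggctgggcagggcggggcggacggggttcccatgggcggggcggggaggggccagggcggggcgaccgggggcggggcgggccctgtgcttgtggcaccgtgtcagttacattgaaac
GC content of these windows was 53.6% for Mlx, 59.2% for Mga, 78.4% for Mxd1 and 73.2% for Mxd3.

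The arrays held 35556 probe sets with a median intensity of 127 to 137 per array. Of 12 genes of myeloid progenitors 11 lay above the median probe set, with Mpo, the myeloperoxidase gene, at mean intensities of 10447 to 13570 and Elane, the neutrophil elastase gene, at 12021 to 15925. The other was Flt3, a receptor of early progenitors, at 72.9 to 79.2. All 6 measured T cell genes lay below the median, with Cd3e at 107 to 119, and so did 5 of 7 B cell genes, with Ms4a1 at 35.8 to 36.3. The B cell genes above it were Cd79b, at 654 to 901, and Igll1, at 135 to 164. The probe set of Zfx itself was not lower in the arrays labelled ko, at 972 to 1094 with GFP and 991 to 1116 with Myc, against 862 to 989 and 966 to 1019 in wt. The log2 difference was 0.11 with GFP (limma adjusted p = 0.619) and 0.08 with Myc (limma adjusted p = 0.789). The sources used here do not state which part of the transcript its probes cover, so this reading does not check the deletion, and every Zfx comparison below rests on the labels. Arrays with the same replicate number deviated together, so a fit with the number as a block is given where it changes a call.

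**Figure D1:**
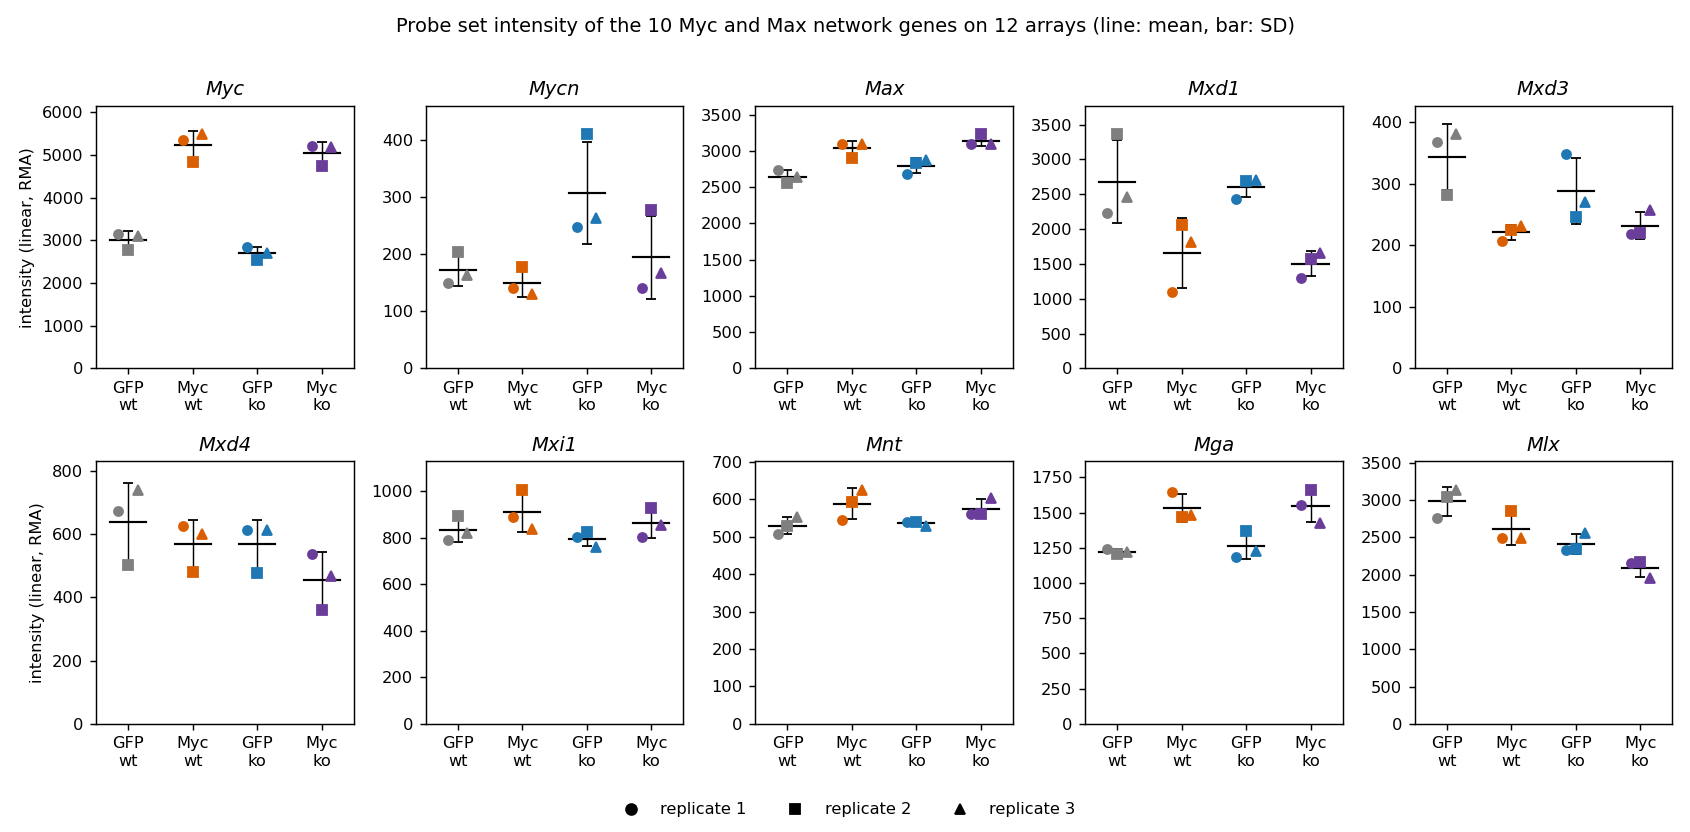
Intensity of each network gene (vertical axis, linear RMA intensity from 0) on the 12 arrays by group (horizontal axis), with the replicate number as the marker, the mean as a line and the SD as a bar (n = 3). Myc lies between 2551 and 3146 on the GFP arrays and between 4747 and 5493 on the Myc arrays, and Mlx steps down over the groups from a mean of 2983 in GFP wt to 2095 in Myc ko.

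With the Myc virus, averaged over both genotypes, Myc, Max and Mga rose, and Mxd1, Mxd3 and Mlx fell. The changes were 1.8-fold for Myc, 1.14-fold for Max and 1.24-fold for Mga upward, and 1.7-fold for Mxd1, 1.38-fold for Mxd3 and 1.15-fold for Mlx downward. Each of these 6 moved in its direction in 6 of 6 pairs of same-numbered arrays. So did Mycn and Mxd4, downward, and Mnt, upward, which did not pass. The pairs are made of the same arrays as the fit, so they add no separate support. Myc is also the gene that the virus expressed, so its rise can come from the virus itself. It is included in every count and median of members given for the Myc virus. Of all genes tested, 21.2% passed in this comparison, 13.2% upward and 8.07% downward (limma, Benjamini-Hochberg adjusted p under 0.05 over all genes). With the replicate number as a block all 10 members passed, 5 up and 5 down, where 32% of all genes passed, 18.4% up and 13.6% down. The median size of change was 0.28 (log2) over the members and 0.07 over all genes. These sets differ in level: all 10 members lay above the median intensity of probe sets, against 10744 of 19938 genes. Within wt arrays 3 members rose and 1 fell, where 9.28% of all genes passed, 6.17% up and 3.11% down. Within ko arrays 2 rose and 1 fell, where 13.2% of all genes passed, 8.58% up and 4.59% down. With the block these were 5 members against 20.5% of genes in wt and 6 against 24.9% in ko. The arrays of the 2 viruses did not overlap for 5 members in wt, where that held for 24.5% of all genes, and for 6 in ko, where it held for 25.5%. No member passed in the test of whether the Myc effect differed between genotypes, where 0% of all genes passed, and 0.00502% (1 gene) with the block. The lowest unadjusted p of a member in that test was 0.145 (limma), and 0 members had an unadjusted p under 0.05.

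The Myc probe set read 3146, 2787 and 3108 on the GFP wt arrays and 5356, 4842 and 5493 on the Myc wt arrays. On the GFP ko arrays it read 2841, 2551 and 2712, and on the Myc ko arrays 5210.4, 4747 and 5180.03. Every Myc array lay above every GFP array, and replicate 2 was the lowest array of all 4 groups. The log2 change was 0.80 ± 0.07 (SE) in wt (limma adjusted p = 7.24e-04) and 0.90 ± 0.07 in ko (limma adjusted p = 3.42e-04). The rises in pairs 1, 2 and 3 were 0.77, 0.80 and 0.82 in wt and 0.88, 0.90 and 0.93 in ko. In each numbered pair the rise in ko exceeded that in wt, by 0.11, 0.10 and 0.11, yet the difference of 0.11 ± 0.10 did not pass (limma adjusted p = 1.00; 0.999 with the block). The residual SD of the Myc probe set was 0.09 (log2) without the block and 0.02 with it. Whether this probe set reads transcripts of the virus, of the cell's own Myc gene or of both is not known here, so they cannot be told apart.

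Max, the partner that Myc needs to bind DNA, read 2740.2, 2554 and 2636 in GFP wt and 3098, 2908 and 3094 in Myc wt. In GFP ko it read 2678, 2836 and 2876, and in Myc ko 3098, 3231 and 3096. The Myc arrays lay above the GFP arrays without overlap in both genotypes. The change was 0.20 ± 0.05 (log2, SE) in wt (limma adjusted p = 0.039) and 0.17 ± 0.05 in ko (limma adjusted p = 0.0601; 0.0434 with the block). The wt call rests on all arrays together: it was kept without GFP ko 1, Myc ko 2 or Myc wt 2 and lost without each of the other 9, with adjusted p from 0.0328 to 0.148 (without Myc wt 3). The averaged change of 0.18 ± 0.04 passed without any 1 array (limma adjusted p = 0.0048, range 0.00566 to 0.0157).

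Mycn, the paralogue of Myc that is used by stem and nerve precursors, read 149, 204 and 163 in GFP wt, 141, 178 and 131 in Myc wt, 247, 409.8 and 263 in GFP ko and 139.98, 277 and 167 in Myc ko. Replicate 2 was the highest array of each group, and the GFP ko arrays were all above the GFP wt arrays. With the Myc virus Mycn differed by -0.20 ± 0.26 (log2, SE) in wt (limma adjusted p = 0.837) and by -0.68 ± 0.26 in ko (limma adjusted p = 0.132; 0.00159 with the block). All 6 pairs were lower with Myc. The averaged change was -0.44 ± 0.19 (limma adjusted p = 0.135; 0.00135 with the block). Without single arrays the ko change ranged from -0.45 (without GFP ko 2; adjusted p = 0.367) to -0.97 (without Myc ko 2; adjusted p = 0.0267). The adjusted p of the average ranged from 0.0236 (without Myc ko 2) to 0.269 (without Myc ko 1). The residual SD was 0.36 without the block and 0.15 with it.

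Among the 5 Max partners that oppose Myc, Mxd1 had the largest averaged log2 change. It read 2229, 3364 and 2457 in GFP wt and 1089.9, 2063 and 1810.3 in Myc wt. In GFP ko it read 2439, 2684 and 2699, and in Myc ko 1300.1, 1565 and 1649.9. The virus groups did not overlap in either genotype, and the closest pair of arrays was Myc wt 2 and GFP wt 1. The change was -0.73 ± 0.22 (log2, SE) in wt (limma adjusted p = 0.0724; 0.00564 with the block) and -0.80 ± 0.22 in ko (limma adjusted p = 0.0391). Without single arrays the wt change ranged from -0.45 (without Myc wt 1) to -0.91 (without Myc wt 2), and its adjusted p from 0.0368 (without Myc wt 2) to 0.2 (without GFP wt 2). The ko call was lost without any of the 6 ko arrays or without GFP wt 3, with adjusted p up to 0.116 (without Myc ko 1). The averaged fall of -0.76 ± 0.16, 1.7-fold (95% interval 1.33 to 2.16), passed without any 1 array (limma adjusted p = 0.00542, range 0.00329 to 0.0148).

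Mxd3, which is known to be expressed in dividing cells, read 367, 281 and 380.5 in GFP wt and 207, 225 and 231 in Myc wt. In GFP ko it read 348, 246 and 270.2, and in Myc ko 218, 219 and 257. The groups were apart in wt and overlapped in ko. The change was -0.62 ± 0.14 (log2, SE) in wt (limma adjusted p = 0.0216) and -0.31 ± 0.14 in ko (limma adjusted p = 0.231). The wt call was lost without GFP wt 1 (0.0792), GFP wt 3 (0.0946), Myc wt 1 (0.0766) or Myc wt 3 (0.0603). The difference between genotypes was 0.32 ± 0.20 (limma adjusted p = 1.00), with all 3 pairs positive, so that a different size in ko was not shown. The averaged fall of -0.46 ± 0.10 passed without any 1 array (limma adjusted p = 0.00741, range 0.00281 to 0.0216).

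Mxd4, Mxi1 and Mnt did not pass the plain fit in any comparison. Mxd4 read 502 to 740.2 in GFP wt, 479 to 624 in Myc wt, 476 to 612 in GFP ko and 361 to 537 in Myc ko. Replicate 2 was the lowest array of every group. With Myc it differed by -0.16 ± 0.18 (log2, SE) in wt (limma adjusted p = 0.803) and by -0.33 ± 0.18 in ko (limma adjusted p = 0.352; 0.00577 with the block), lower in 6 of 6 pairs. The averaged difference was -0.24 ± 0.13 (limma adjusted p = 0.266; 0.0028 with the block). The block took its residual SD from 0.25 to 0.08. Mxi1 read 759 to 891 on the GFP arrays and 801 to 1006 on the Myc arrays, and its averaged difference was 0.12 ± 0.06, higher in 5 of 6 pairs (limma adjusted p = 0.203; 0.0355 with the block). Mnt, the most widely expressed of these repressors, read 507 to 553 with GFP and 544 to 626 with Myc, and its averaged difference was 0.13 ± 0.04, higher in 6 of 6 pairs (limma adjusted p = 0.0712; 0.0259 with the block, and in the plain fit 0.0299 without Myc wt 1 and up to 0.169 without Myc wt 3).

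Mga, the large protein that ties Max to PRC1.6, rose in both genotypes. It read 1243, 1202 and 1220.3 in GFP wt and 1644, 1468 and 1482 in Myc wt. In GFP ko it read 1188, 1372 and 1230.5, and in Myc ko 1556, 1663 and 1428. The Myc arrays were above the GFP arrays without overlap in both. The change was 0.32 ± 0.08 (log2, SE) in wt (limma adjusted p = 0.0232) and 0.29 ± 0.08 in ko (limma adjusted p = 0.0277). Without single arrays of the groups compared the adjusted p went up to 0.0862 in wt (without Myc wt 1; also lost without GFP wt 1, 2 or 3 or Myc wt 3) and 0.101 in ko (without GFP ko 1; also lost without GFP ko 3 or Myc ko 1 or 2). The averaged rise of 0.31 ± 0.05, 1.24-fold (95% interval 1.14 to 1.34), passed without any 1 array (limma adjusted p = 0.00202, range 0.00146 to 0.00652).

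**Figure D2:**
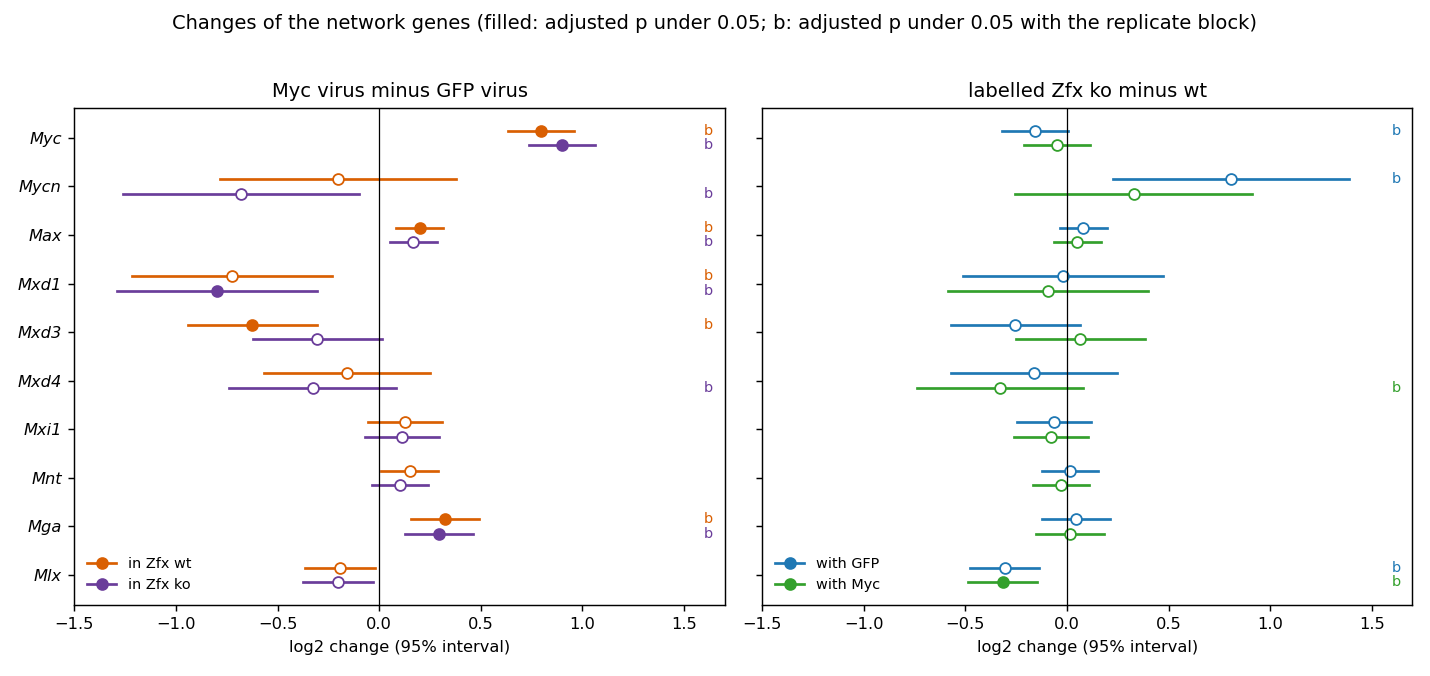
Log2 change of each network gene (horizontal axis) with its unadjusted 95% interval, for the Myc virus against GFP in each genotype (left) and for arrays labelled Zfx ko against wt with each virus (right). Filled points passed limma's adjusted p of 0.05 and b marks those that passed with the replicate block. Myc lies at 0.80 and 0.90 and Mxd1 at -0.73 and -0.80 on the left, and Mlx at -0.31 and -0.32 on the right.

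Between arrays labelled ko and wt, Mlx was the 1 member that passed the plain fit. Averaged over the viruses it fell by 0.31 ± 0.05 (log2, SE), 1.24-fold (95% interval 1.14 to 1.35), in 6 of 6 pairs (limma adjusted p = 0.00418, range 0.00454 to 0.0135 without single arrays). In that comparison 12.1% of all genes passed, 7.34% downward, and with the block 4 members passed against 23% of genes. With GFP 0 members passed, where 4.11% of genes did. By unadjusted p under 0.05 there were 2, and with the block 3 passed against 12.2% of genes. With Myc 1 member fell, where 5.46% of genes passed, 3.72% downward, and with the block 2 against 14.1%. The groups of arrays did not overlap for 2 members with GFP, where that held for 17.9% of genes, and for 1 with Myc, where it held for 19.5%.

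Mlx read 2762, 3046 and 3143 in GFP wt, 2492, 2849 and 2491 in Myc wt, 2325, 2346 and 2561 in GFP ko and 2158, 2169.8 and 1956 in Myc ko. In order of their means the groups were GFP wt, Myc wt, GFP ko and Myc ko. GFP wt overlapped Myc wt and Myc wt overlapped GFP ko, while every GFP ko array was above every Myc ko array. The Zfx difference was -0.31 ± 0.08 with GFP (limma adjusted p = 0.0565; 0.0238 with the block, and in the plain fit 0.0468 without Myc wt 2 and up to 0.215 without GFP wt 3) and -0.32 ± 0.08 with Myc (limma adjusted p = 0.0412). The call with Myc was kept without GFP wt 1 and without GFP ko 3 and lost without each of the other 10 arrays, with adjusted p up to 0.15 (without Myc ko 3). The Myc virus lowered Mlx by a further 0.20 ± 0.05 averaged over genotypes (limma adjusted p = 0.0249). That call was lost without GFP wt 2, GFP wt 3, Myc wt 1, Myc wt 3, GFP ko 3 or Myc ko 3 (0.0529 to 0.0651), and with arrays centred on their medians (0.0848).

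Mycn, Myc and Mxd4 differed by genotype in the blocked fit alone. Mycn was higher in the arrays labelled ko by 0.81 ± 0.26 (log2, SE) with GFP, 1.75-fold, in 3 of 3 pairs (limma adjusted p = 0.145; 0.00137 with the block). With Myc the difference was 0.33 ± 0.26, higher in 2 of 3 pairs (limma adjusted p = 0.717; 0.0745 with the block). Myc was lower by 0.16 ± 0.07 with GFP, in 3 of 3 pairs (limma adjusted p = 0.367; 0.0395 with the block). Mxd4 was lower by 0.33 ± 0.18 with Myc, in 3 of 3 pairs (limma adjusted p = 0.485; 0.00955 with the block), and by 0.16 ± 0.18 with GFP (limma adjusted p = 0.856; 0.171 with the block). Averaged over viruses, Mycn had a limma adjusted p of 0.0804 (0.00054 with the block), Myc of 0.282 (0.0316) and Mxd4 of 0.328 (0.00421). In the plain fit without single arrays, Mycn ranged from 0.0428 (without Myc ko 1) to 0.172 (without Myc wt 3). The other 6 members had Zfx differences between -0.25 and 0.08 in the 2 viruses and did not pass either fit. Megakaryocyte genes read higher under the same label. The summed intensity of 6 such genes was 7402 to 14269 in GFP wt and 21264 to 27704 in GFP ko. With Myc the sums were 1918 to 7401 in wt and 5629 to 16912 in ko. None of the 6 passed the plain fit with either virus, and 5 rose with each in the blocked fit and 5 in the plain fit averaged over viruses. Mast cell and basophil sums over 14 genes went the other way, from 24469.9 to 30754 in GFP wt and 14531 to 19277 in GFP ko, and 3 of the 14 fell with GFP and 5 with Myc. Erythroid genes also read higher in arrays labelled ko: of 9, 0 rose with GFP, 4 with Myc and 5 averaged over viruses (median 0.37, 1.11 and 0.85). Their summed intensity was 1224 to 1556 in GFP wt and 1815 to 2036 in GFP ko, and 1595 to 2157 in Myc wt and 2973 to 7652 in Myc ko. The part of these cells in the differences of Mlx, Mycn, Myc and Mxd4 was not tested. Over all genes 4.11% passed the plain fit with GFP, 5.46% with Myc and 12.1% averaged over viruses.

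Genes of maturing neutrophils read lower with the Myc virus, as did Mxd1 and Mxd3. Of 16 measured neutrophil maturation genes besides Mxd1, 8 fell with Myc in wt and 12 in ko, and 0 rose in either. The shares of all genes that fell were 3.11% in wt and 4.59% in ko. Medians of the 16 were -0.92 and -1.03, against 0.00 and 0.01 over all genes. Their summed intensity lay between 84382 and 105109 on the GFP arrays and between 43134 and 61041 on the Myc arrays. Ltf, the lactoferrin gene, had means of 8518 in GFP wt and 2782 in Myc wt, and Cebpe, a transcription factor of late granulocytes, 3457 and 2707. None of the 16 was below the median intensity of all probe sets. Their part in the changes of Mxd1 and Mxd3 was not tested, and in such bulk RNA fewer cells of a type and less RNA per cell cannot be told apart. The array with the lowest neutrophil sum of its group also had the lowest Mxd1 in Myc wt and Myc ko. In GFP wt that array had the highest Mxd1 of all 12 arrays (3364), and in GFP ko the middle value of its group (2684). The array with the lowest sum had the lowest Mxd3 in all 4 groups, though in Myc ko by a small margin (218.3 against 219.1). Genes of other myeloid cells read lower with Myc as well. Of 12 myeloid progenitor genes 2 fell in wt and 3 in ko, and 0 rose (median -0.23 and -0.37). Of 11 monocyte and macrophage genes 2 fell in wt and 1 in ko, and 0 rose (median -0.37 and -0.43). Their summed intensity was 16672 to 21991 in GFP wt and 8882 to 16521 in Myc wt, and 21329 to 24383 in GFP ko and 12396 to 20052 in Myc ko. The part of these cells in the changes with Myc was not tested. By Zfx label the neutrophil medians were -0.02 with GFP and 0.11 with Myc. Mxd1 differed by -0.02 and -0.09, and Mxd3 by -0.25 and 0.06. With the Myc virus Mxd3 changed by -0.62 in wt and by -0.31 in ko, where it did not pass. The neutrophil median was not smaller in ko than in wt.

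**Figure D3:**
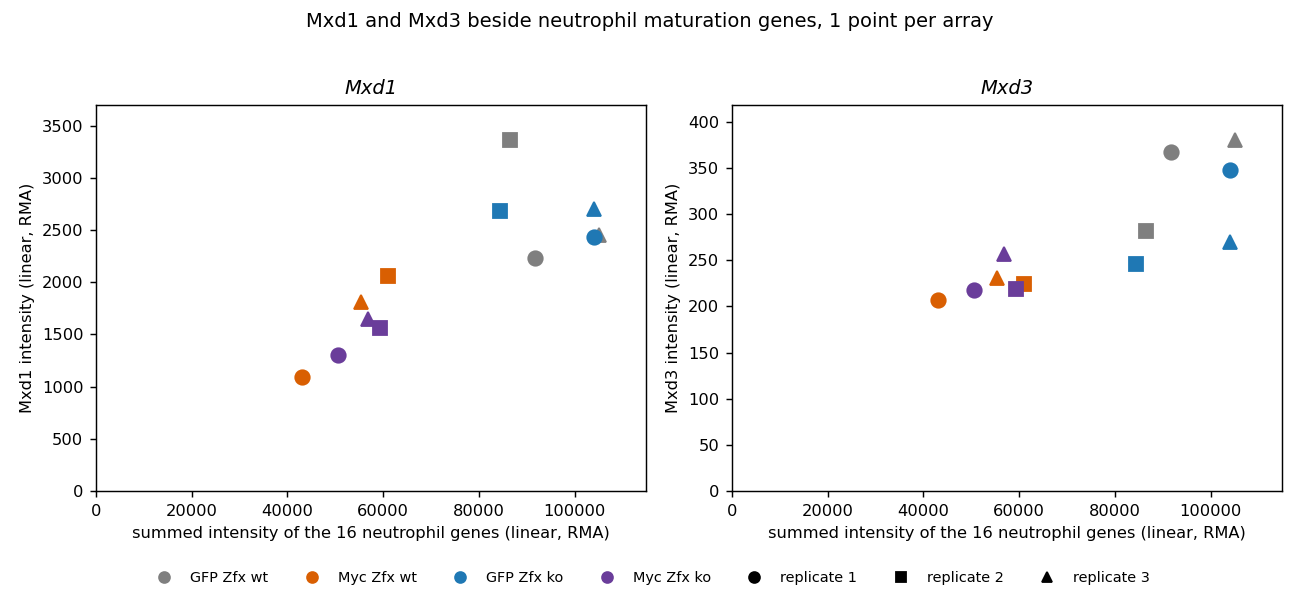
Intensity of Mxd1 (left) and Mxd3 (right) on the vertical axes against the summed intensity of 16 neutrophil maturation genes on the horizontal axis, 1 point per array, coloured by group with the replicate number as the marker. The Myc arrays have both the lower sums, at most 61041, and Mxd1 values of at most 2063, below the lowest GFP array at 2229.

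Dividing-cell genes did not follow the same course. Of 19 measured cell cycle genes, Mki67 fell with Myc in wt, and Gins1 and Mcm2, of DNA replication, rose in ko (median 0.00 in wt and 0.07 in ko). In arrays labelled ko 3 fell with GFP and 2 with Myc, among them E2f1, which drives entry into S phase, at 1.59-fold and 1.49-fold lower. Their summed intensity was 67871 to 69348 in GFP wt and 61055 to 65178 in GFP ko, with 65915 to 68768 in Myc wt and 63444 to 66433 in Myc ko, and its part in the Mlx difference was not tested. Of 9 erythroid genes 1 rose with Myc in wt and 6 in ko. Of 14 mast cell and basophil genes 6 fell in each genotype, and 1 rose in wt. With Myc 6.17% of all genes rose and 3.11% fell in wt, and 8.58% rose and 4.59% fell in ko. By Zfx label 4.11% of all genes passed with GFP and 5.46% with Myc.

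For each member that passed the plain fit in any comparison, the 3 genes with the closest values were found. The measure was the root mean square difference of centred log2 values over the 12 arrays. Symbols of predicted genes, unnamed clones, microRNAs, small nucleolar RNAs and odorant or pheromone receptors were left out before ranking. For Myc these were Adi1, of methionine salvage (0.10), Rpusd2, a pseudouridine synthase gene (0.10), and Slc29a2, a nucleoside transporter gene (0.11). Slc29a2 rose by 0.83 in wt and 0.90 in ko, beside 0.80 and 0.90 for Myc. For Mxd1 they were Mgll, Tuba8 and St3gal2 (0.15 to 0.18), and for Mxd3 Cebpe, Adamtsl4 and Capn1 (0.13 each). For Mlx they were Mid1ip1 (0.06), Foxm1, a transcription factor of mitosis (0.07), and Def6 (0.08). Foxm1 differed with the Zfx label by -0.40 with GFP and -0.35 with Myc. Max lay closest to Sdhc, Rpl36 and Ube4b (0.05 each) and Mga to Mtpap, Srek1 and Dnaaf3 (0.06 each). A small distance is easier to reach for a member that varies little, such as Max, whose own root mean square was 0.11, against 0.46 for Mxd1.

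A further 10 genes were measured: Mycl, Mycs and Bmyc of the Myc family, the Mlx partners Mlxip and Mlxipl, the Myc-binding proteins Mycbp, Mycbp2 and Zbtb17, the Myc target Myct1, and Zfx. These did not pass the plain fit with Myc in either genotype or by Zfx label with either virus, though Myct1 rose by Zfx label when averaged over viruses, by 0.53 (limma adjusted p = 0.0395). With the block 0 of them passed with Myc in wt and Myct1 fell in ko, and by Zfx label Myct1 and Bmyc rose with GFP and Bmyc with Myc. The 10 spanned -0.07 to 0.14 (log2) with Myc in wt and -0.59 to 0.20 in ko. Over all genes 9.28% passed the plain fit with Myc in wt and 13.2% in ko. By Zfx label 4.11% of all genes passed with GFP and 5.46% with Myc. The Mondo partners of Mlx differed with Myc as follows: Mlxip by -0.07 in wt and -0.19 in ko, and Mlxipl by 0.09 and 0.12. Between genotypes Mlxip differed by -0.04 with GFP and -0.16 with Myc. Of 9 genes known as targets of Mlx and its partners, 1 rose with Myc in wt (Hk2, of glycolysis) and 3 in ko (Pklr, Fasn and Acaca), and 0 fell. In arrays labelled ko Fasn, the fatty acid synthase gene, fell 1.93-fold with GFP (limma adjusted p = 0.00702) and 1.58-fold with Myc (limma adjusted p = 0.0355). Pklr, a pyruvate kinase gene, rose 1.99-fold with Myc (limma adjusted p = 0.00733). Of 9 erythroid genes 4 also rose by Zfx label with Myc (median 1.11), and 6 rose with the Myc virus in ko. The part of erythroid cells in the changes of Pklr was not tested. Txnip, the best known Mondo target, differed by 0.48 with GFP and 0.42 with Myc and did not pass (limma adjusted p = 0.516 and 0.585; 0.032 and 0.0488 with the block).

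Genes for proteins that Myc recruits changed unevenly. Of 17 coactivator genes 3 rose and 1 fell in wt, and 4 rose and 1 fell in ko (median 0.12 and 0.11). Over all genes 6.17% rose and 3.11% fell in wt, and 8.58% rose and 4.59% fell in ko. The helicase genes Ruvbl1 and Ruvbl2 rose 1.75-fold and 1.39-fold in wt and 1.84-fold and 1.53-fold in ko. Kat2a, a histone acetyltransferase gene, rose 1.32-fold and 1.41-fold, and Ep300, another acetyltransferase gene, fell 1.21-fold and 1.23-fold. Of 11 corepressor genes that serve Mxd and Mnt, Sin3b fell 1.21-fold in wt and 1.17-fold in ko and Sap18 rose in ko (median 0.07 and 0.06). By Zfx label 0 of the 11 corepressor genes passed with either virus. Of the 17 coactivator genes 0 passed with GFP and 1 with Myc, Ctr9 of the Paf1 complex, which rose. These counts were near the shares over all genes, 4.11% with GFP and 5.46% with Myc.

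Among the partners of Mga in PRC1.6, Pcgf6, the Polycomb ring finger subunit that defines the complex, rose 1.83-fold with Myc in wt (limma adjusted p = 7.24e-04) and 1.85-fold in ko (limma adjusted p = 4.92e-04). It fell with the Zfx label, 1.29-fold with GFP (limma adjusted p = 0.0366) and 1.28-fold with Myc (limma adjusted p = 0.035). L3mbtl2 rose with Myc 1.26-fold and 1.34-fold, and E2f6 1.38-fold in ko. In all, 2 of 10 PRC1.6 genes rose with Myc in wt and 3 in ko, where 6.17% and 8.58% of all genes rose. By Zfx label 1 fell with each virus (median -0.21 with GFP and -0.15 with Myc). The shares of all genes that passed by Zfx label were 4.11% with GFP and 5.46% with Myc. Of 18 Myc turnover genes Usp36, Usp28 and Skp2 rose in both genotypes, Usp36 by 1.74-fold and 1.86-fold. Usp36 and Usp28 encode deubiquitinases that spare Myc, and Skp2 a ligase subunit that tags it. Between genotypes Axin1, a scaffold for Myc breakdown, fell 1.64-fold with GFP and 1.65-fold with Myc. Usp28 fell 1.48-fold and 1.46-fold and Fbxl14 1.33-fold and 1.31-fold, and Skp2 fell with GFP, so that 4 of 18 fell with GFP and 3 with Myc.

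Known targets of Myc were measured in 2 lists. Of 27 genes known to be activated by Myc, 15 rose in wt and 17 in ko and 0 fell (median 0.46 and 0.48). The shares of all genes that rose were 6.17% and 8.58%. The rises among the 27 included Polr1b, of RNA polymerase I, at 1.66-fold and 1.72-fold, and Apex1, a DNA repair gene, at 1.53-fold and 1.61-fold. Prmt5, an arginine methyltransferase gene, rose 1.46-fold and 1.51-fold. Of 15 genes known to be repressed by Myc, 5 fell in wt and 4 in ko and 0 rose (median -0.20 and -0.27). The shares of all genes that fell were 3.11% and 4.59%. Ndrg1 fell 1.46-fold and 1.68-fold, and Cdkn1b, the p27 cell cycle inhibitor gene, 1.47-fold and 1.45-fold. By Zfx label 0 of the 27 and 0 of the 15 passed the plain fit with either virus. Over all genes 4.11% passed with GFP and 5.46% with Myc, so counts of 0 in lists this short do not set them apart. Medians were -0.03 and -0.02 for the activated genes and 0.12 and 0.10 for the repressed ones. With the block 0 of the 27 activated genes passed with either virus. Of the repressed genes 3 rose and 1 fell with GFP, and 2 rose and 1 fell with Myc. The blocked shares over all genes were 12.2% with GFP and 14.1% with Myc. Averaged over viruses, 0 activated genes passed the plain fit and 1 repressed gene rose, where 12.1% of all genes passed. With the block 1 activated gene rose and 3 fell, and 5 repressed genes rose and 1 fell, where 23% of all genes passed.

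**Figure D4:**
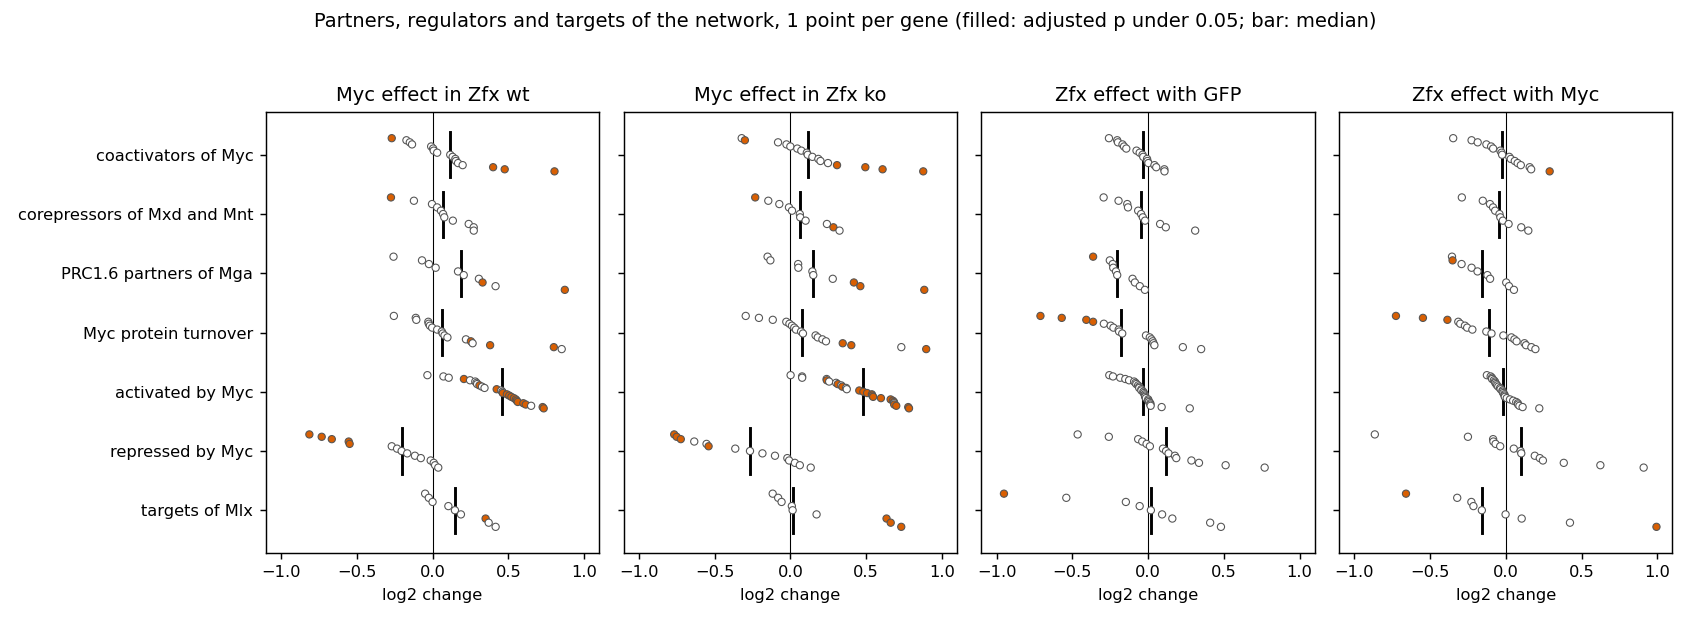
Log2 change (horizontal axis) of each measured gene in 7 lists of partners, regulators and targets of the network (vertical axis), in 4 comparisons, with filled points past limma's adjusted p of 0.05 and bars at the list medians. The genes activated by Myc centre on 0.46 and 0.48 in the Myc comparisons and on -0.03 and -0.02 in the Zfx comparisons.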

How the data were processed

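Bone marrow progenitor cultures were profiled on 12 arrays, 3 in each of 4 groups taken from the sample titles. The authors deposited 1 linear intensity per probe set and array, made with RMA per the submitters' processing notes. The plan spoke of log2 values, so log2 was taken first, with no pseudocount and no filter. Of 35556 probe sets, 21789 had 1 symbol in the platform table, 1621 several and 12146 none; the brightest was kept for each of 19938 genes.

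Group means were fitted with limma 3.58.1 (lmFit and eBayes, R 4.3.3) over all 12 arrays, with 8 residual degrees of freedom and Benjamini-Hochberg adjustment over all genes at 0.05. The fit was tested on simulated data with independent noise on each array, so the test does not cover deviations shared by same-numbered arrays. Same-numbered arrays of different groups deviated together (correlation 0.40 to 0.85, 18 pairs), so a replicate block was fitted as well. The labels do not say what a number shares or that replicates were separate animals, so p-values measure the spread between arrays, which may be technical, and their number limits the precision. Intervals are 95% intervals of single genes.

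Named genes were the members, Zfx, up to 4 genes past the threshold per list and comparison by adjusted p, and the 3 genes closest to each member past the threshold. Mlxip, Mlxipl, Txnip, Myct1, Bmyc and some marker genes were named after their values were seen. Members and lists were chosen with earlier results of these data known. Alternatives were the block, a second quantile normalization, median centring, genes above the median intensity, all probe sets, only the groups compared, a trended robust prior and leaving out each array.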

Additional observations from a re-analysis of the deposited data

How the results depend on the processing

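With the replicate block the number of members past the threshold went from 3 to 6 for the Myc effect in ko, from 0 to 3 and from 1 to 2 for the Zfx effect with GFP and with Myc, from 6 to 10 for the averaged Myc effect and from 1 to 4 for the averaged Zfx effect. The blocked counts over all genes were 4082 (1851 without the block) and 4959 (2626) for the Myc effect in wt and ko, 2440 (819) and 2808 (1089) for the Zfx effect with GFP and Myc, 6380 (4236) and 4583 (2406) for the averaged Myc and Zfx effects, and 1 (0) for the interaction. The block changed no other member call than those given with it above. A second quantile normalization brought the members past the threshold for the Zfx effect with GFP to 1 (Mlx, adjusted p = 0.0418), took Max out in wt (0.0784) and brought Mxd1 in wt (0.0468) and Mlx in ko (0.0496) past it. Centring arrays on their medians left 0 members for the Zfx effect with Myc (Mlx at 0.0879), took Mxd1 out in ko (0.0727) and brought Max in ko past it (0.0474). With only the groups compared, 0 members passed for the Zfx effect with Myc, all-gene counts were 1418 for the Myc effect in ko and 562 for the Zfx effect with Myc, and Max in wt (0.0962) and Mga in ko (0.106) were lost. Max in wt was also lost with a trended and robust prior (0.0614), and Mxd1 in wt passed among the 10744 genes above the median intensity (0.0451). Leaving out each array in turn, members past the threshold ranged from 1 to 5 and 1 to 3 for the Myc effect in wt and ko, 0 to 1 for the Zfx effect with each virus, 5 to 7 and 1 to 2 for the averaged Myc and Zfx effects, and stayed at 0 for the interaction. All-gene counts ranged from 838 to 2044 and 1395 to 2555 for the Myc effect in wt and ko, 410 to 802 and 578 to 1098 for the Zfx effect with GFP and Myc, 3538 to 4154 and 1792 to 2272 for the averages, and 0 to 4 for the interaction. No called member change reversed sign under these alternatives. Averaged over the other factor, Myc, Max, Mga, Mxd1 and Mxd3 with the virus and Mlx with the Zfx label passed under every alternative run. The fit with only the groups compared was not run for these averages, which use all 4 groups. The cause of these shifts was not tested, apart from the fewer arrays or genes that some alternatives use by construction.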
